A study of Gallus gallus with 2 samples.

Results

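The genes described here copy the genome before cell division or mend damaged DNA, and were measured by RNA-seq in embryonic chicken (Gallus gallus) heart. They were chosen by name alone, with a fixed pattern over families such as MCM, ORC, GINS, RFC, RPA, RAD, FANC, XRCC, ERCC and MSH. The pattern found 95 of the 13011 gene names in the deposited tables. By known role, 35 of them act in replication, 47 in repair, and 13 match the pattern without belonging clearly to either. Some of the 35, such as PCNA, RFC1 and RPA1, also act in repair but are counted under replication. The subunit MCM7 and the kinase CHEK1 are not analysed here.

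The series holds 2 libraries. The control library came from hearts of embryos given saline, and the AAPH library from hearts of embryos given AAPH, 2,2-azobis(2-amidinopropane) dihydrochloride, which breaks down into free radicals. Incubation was at 38 °C with humidity of 70%; AAPH, 2.6 µmol per injection of 100 µL, was placed in the air chamber from Hamburger-Hamilton stage 35, with repeats on alternate days until day 10. Hearts of surviving embryos were collected at stage 37, day 11. The labels name no strain or transgene and do not give the number of hearts per library or the sex of the embryos. With 1 library per group there is no replicate error: no p-value can be given, and every difference below is one between these 2 libraries.

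Replication starts at origins marked by the origin recognition complex (ORC), onto which CDC6 helps to load the MCM helicase. CDC45 and GINS turn MCM into the active helicase, primase and polymerases then copy both strands, and the PCNA clamp holds the polymerases on DNA. Separate repair routes deal with mispaired bases, bulky lesions, crosslinks and double-strand breaks, and checkpoint kinases such as ATM and ATR report damage to the cell cycle. Free radicals damage bases and break strands. The embryonic heart still grows by division of cardiomyocytes, so replication genes are active in it.

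Levels are given in FPKM, in which fragments are corrected for transcript length and library total, summed over the transcripts of a name. The log2 ratio is log2((AAPH FPKM + 1)/(control FPKM + 1)), which understates the change of low genes. Names with a mean FPKM of 1 or more were compared, 10106 in all, and 94 of the 95 members entered. The member below this level was RAD21L1, a meiotic cohesin subunit, at 0.264 FPKM in control hearts and 0.111 in AAPH hearts. Its ratio is that of 5 and 2 fragments, in the smallest whole numbers. This ratio of 0.420 had an exact binomial (Clopper-Pearson) 95% interval of 0.0400 to 2.57, for counting error only. Absolute depth is unknown for FPKM; in low genes, the FPKM of 1 fragment in the AAPH library was 1.05 times that in the control library.

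Rescaling each library to TPM, which sets both totals equal, moved the median log2 ratio of all genes from 0.00 to 0.23, and rescaling without haemoglobin and mitochondrial-genome genes moved it to 0.22. Ratios are therefore given as deposited and are to be read against the median of all genes. Of the 40 members below 0 as deposited, 28 lay above 0 under both rescalings. The 11 that stayed below 0 under both were ATR, CHEK2, FANCE, GINS1, MSH4, PARP3, PARP6, RAD51B, RFC5, XRCC6 and XRCC6BP1. Crossing 0 in this way follows the move of all genes. Positions less the median of all genes are given where a call turns on it and for several members that crossed 0.

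Heart muscle markers were abundant in both libraries, with TNNT2, cardiac troponin T, at 5989 FPKM in control hearts and 5342 in AAPH hearts. The 7 cardiomyocyte markers with a value, of 8 listed, summed to 29454 and 25695 FPKM. Markers of dividing cells, 10 of 10 with a value, summed to 417 and 435 FPKM, with a median log2 ratio of 0.09. Among them CDK1, the kinase that drives entry into mitosis, was at 197.5 and 201.5 FPKM and MKI67 at 9.03 and 10.5. Erythroid markers, 6 of 10 with a value, summed to 3450 and 2293 FPKM and were all lower in the AAPH library as deposited, with a median of −0.99. Neural markers, 7 of 8, summed to 176 and 131 (median −0.39). Fibroblast and epicardial markers, 6 of 8, summed to 766 and 729 (−0.02), endothelial markers, 6 of 6, to 118 and 125 (0.13), and the 2 tested leukocyte markers to 7.82 and 9.07 (0.14). No marker with a value was listed at 0. In whole hearts, fewer cells of a type and less RNA per cell cannot be told apart, and the part of these cell types in the ratios below was not tested.

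Replication genes were expressed at higher levels than repair genes. The median replication member was at 23.8 FPKM in control hearts and 23.6 in AAPH hearts. The median repair member was at 5.58 and 5.73 FPKM. Over all tested genes the median was 10.2 and 10.3 FPKM. Summed over members, replication genes held 1032 and 1021 FPKM and repair genes 417 and 442.

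**Figure D1:**
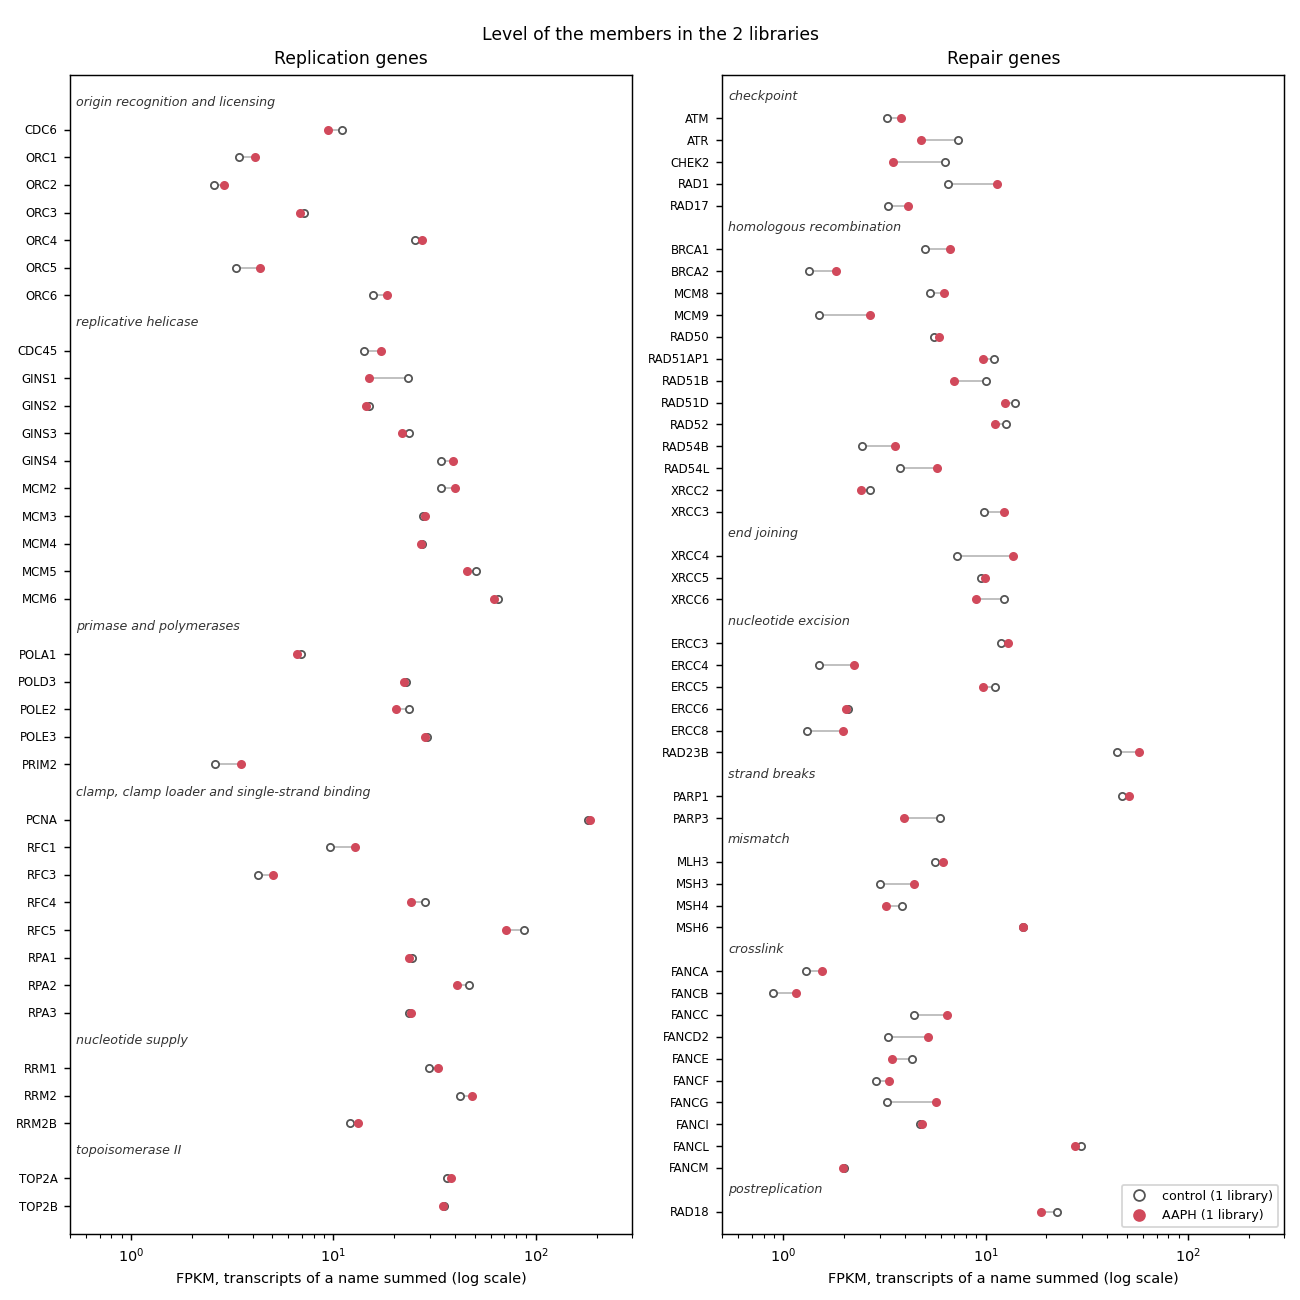
FPKM of replication members (left) and repair members (right) on a log axis, grouped by role (members not reported here are left out); open circles are the control library and filled circles the AAPH library, 1 library each. Replication genes lie mostly above 10 FPKM, with PCNA at 182 and 187, and most pairs of circles lie close together.

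Most members had similar values in both libraries. At 1.5-fold, a log2 ratio of 0.585, 3 of 94 members were higher in the AAPH library, against 2.73% of all tested genes, and 2 were lower, against 3.93%. The higher members were XRCC4, RAD1 and FANCG, all repair genes. The lower members were CHEK2, a checkpoint kinase, and GINS1, a helicase subunit. At 1.2-fold, a line added after the data were seen, 20 members were higher and 10 lower, against 16.6% and 18.0% of all genes. The 3 members nearest below the 1.5-fold line were MCM9, FANCD2 and RAD54L on the higher side (0.57, 0.53 and 0.49), and PARP6, ATR and PARP3 on the lower side (−0.57, −0.52 and −0.49). As TPM, 10 members were 1.5-fold or more higher, against 8.4% of all genes, and 0 lower, against 1.6%. Under the other rescaling 11 were higher, against 8.53%, and 0 lower, against 1.83%. CHEK2 and GINS1 thus came within 1.5-fold on both scales, with the move of all genes; less the median of all genes, CHEK2 lay at −0.70 and −0.73 and GINS1 at −0.59 and −0.60.

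Replication members had a median log2 ratio of 0.02 and a standard deviation over genes of 0.20; 18 of 35 were above 0, and 50.5% of all tested genes were. Repair members had a median of 0.11 and a standard deviation of 0.34, with 29 of 47 above 0. The difference between the medians, replication minus repair, was −0.09. Genes are not replicates, so these are descriptions of the lists. The lists also differ in level. Of all tested genes placed on other chromosomes than Z, 58.5% were above 0 at a mean of 1 to 5 FPKM and 36.3% at 20 or more. Without members on chromosome Z the repair median as deposited was 0.02 in 39 genes, and the difference was −0.0007. Under both rescalings the replication median was instead the higher (0.27 and 0.24 as TPM). None of the replication members is on Z.

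**Figure D2:**
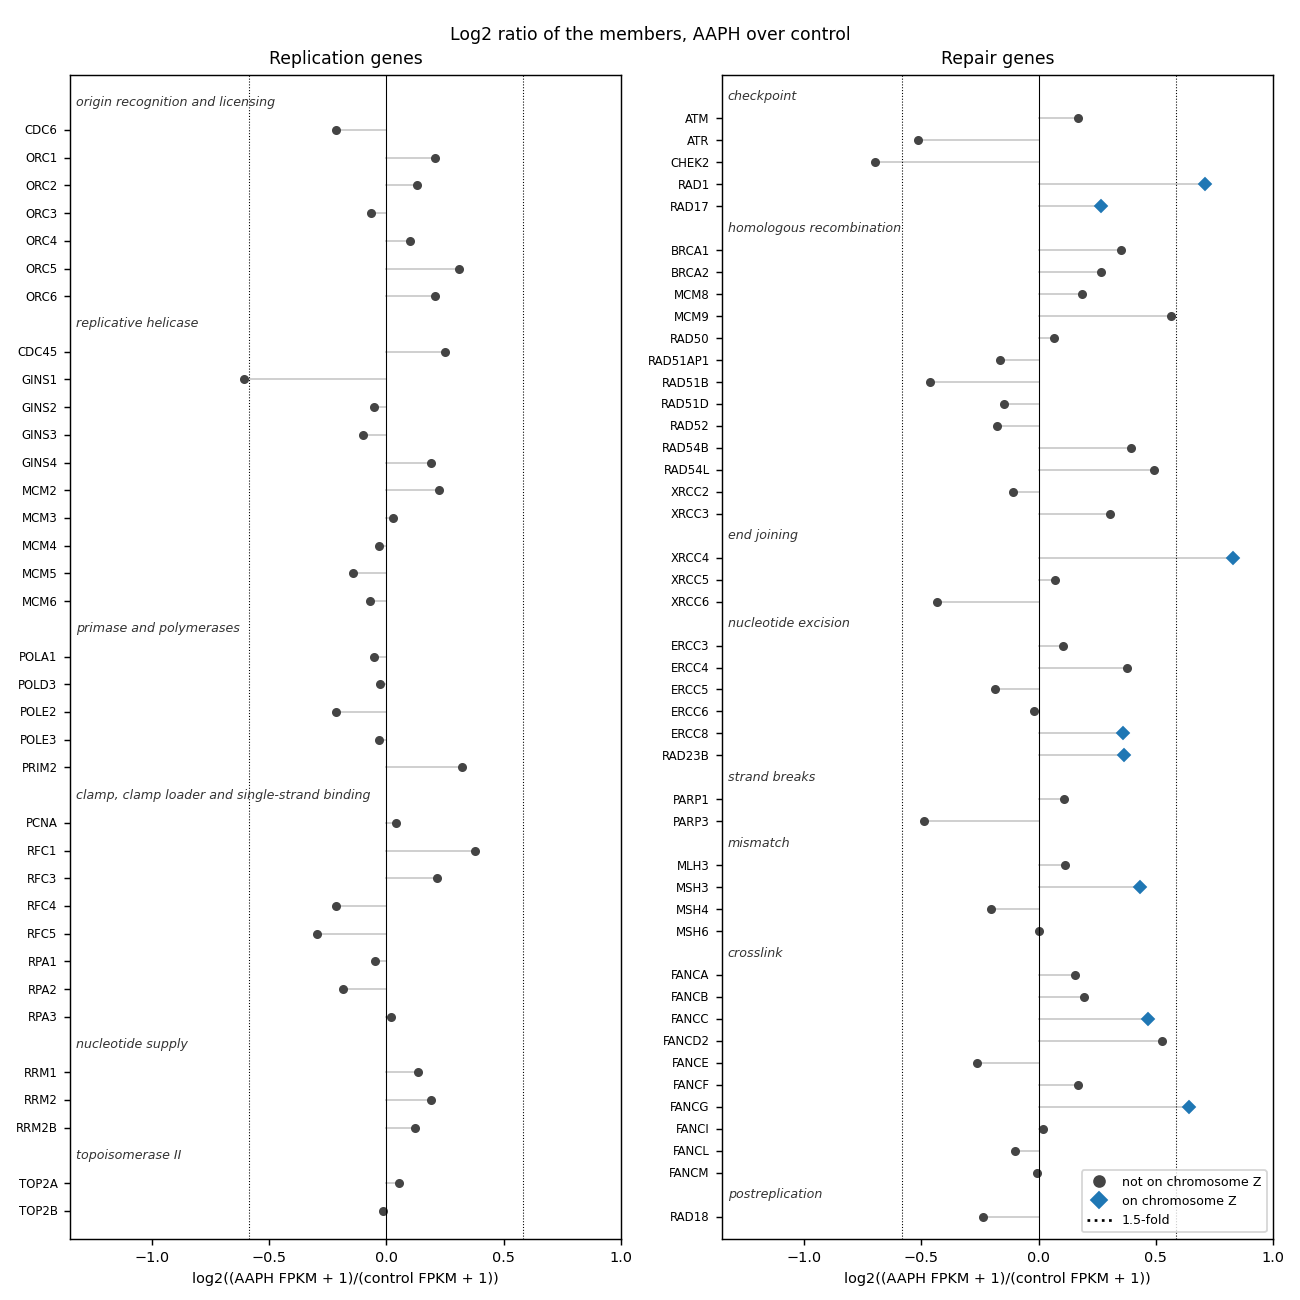
Log2 ratio of replication members (left) and repair members (right), AAPH over control, with dotted lines at 1.5-fold and without members not reported here; blue diamonds are members on chromosome Z. All 8 Z-linked repair members lie to the right of 0, from 0.26 to 0.83. GINS1 is the 1 replication member past a dotted line. Under both rescalings GINS1 comes within 1.5-fold, but less the median of all genes it lies at −0.59 (TPM) and −0.60.

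Of the origin recognition genes, 5 of 6 had slightly higher values in the AAPH library as deposited, with transcripts summed. With the highest transcript alone, ORC3 (−0.68), ORC4 (−0.15) and ORC6 (−0.15) lay below 0. On that measure ORC1 (0.21), ORC2 (0.81) and ORC5 (0.31) lay above it. ORC1 to ORC6, the subunits of the complex, had a median log2 ratio of 0.17, 0.16 above that of all genes, and summed to 57.7 FPKM in control hearts and 63.8 in AAPH hearts. The subunits differed in level, from ORC2, at 2.56 and 2.89 FPKM, to ORC4, at 25.4 and 27.3. ORC6 was at 15.8 and 18.4, ORC1 at 3.43 and 4.11 and ORC5, the member with the largest ratio of the complex (0.31), at 3.32 and 4.35. ORC3 alone lay below 0 as deposited (7.19 and 6.84 FPKM, −0.06); it was above 0 under both rescalings but −0.07 from the median of all genes in each. CDC6, which loads the helicase, was at 11.1 and 9.41 FPKM (−0.21, and 0.02 after rescaling to TPM). Less the median of all genes it lay at −0.21 as TPM. ORC5 was the 1 gene of this role past 1.2-fold. ORC1, ORC2 and ORC5 had mean levels of 1 to 5 FPKM, where genes placed on other chromosomes than Z had a median of 0.06.

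The 10 helicase genes had a median log2 ratio of −0.04, and all but GINS1 were within 1.2-fold. MCM2 to MCM6, subunits of the ring that unwinds DNA, summed to 205 FPKM in control hearts and 203 in AAPH hearts, and their ratios ranged from −0.14 to 0.22. MCM6 was the most abundant, at 65.3 and 62.2 FPKM, and MCM4 the least, at 27.6 and 27.0. MCM2 was at 34.2 and 40.1, MCM3 at 27.7 and 28.3 and MCM5 at 50.5 and 45.6. The ring subunits thus did not move together in 1 direction as deposited. All 5 were above 0 under both rescalings, but less the median of all genes MCM4 (−0.01), MCM5 (−0.12) and MCM6 (−0.04) stayed below it as TPM. CDC45, which joins the ring at firing origins, was at 14.2 and 17.1 FPKM (0.25). With its highest transcript alone it lay at −0.17.

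GINS subunits, which are present in equal numbers in the complex, had unequal ratios. GINS1 was at 23.4 FPKM in control hearts and 15.0 in AAPH hearts, and its log2 ratio was −0.61. GINS2 was at 15.0 and 14.5 FPKM, GINS3 at 23.6 and 22.0, and GINS4 at 34.1 and 39.0 (−0.05, −0.10 and 0.19). GINS1 was thus the 1 subunit past 1.5-fold; it lay at −0.36 after rescaling to TPM and −0.39 after the other rescaling, within 1.5-fold in both. Against the median of all genes it lay at −0.59 and −0.60 on these scales. A single transcript was assembled for GINS1, so its ratio does not depend on how fragments were divided between transcripts.

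The 5 polymerase and primase genes had a median log2 ratio of −0.03, with PRIM2 and POLE2 farther out. POLA1, the catalytic subunit of polymerase alpha, was at 6.89 and 6.59 FPKM. POLD3, an accessory subunit of polymerase delta, was at 22.8 and 22.4, and POLE3, one of polymerase epsilon, at 29.1 and 28.5. POLE2, another subunit of polymerase epsilon, was at 23.8 and 20.3 (−0.22, and 0.03 after rescaling to TPM). Less the median of all genes it lay at −0.20 as TPM. PRIM2, the large primase subunit, was the highest by ratio (0.32), at 2.59 and 3.49 FPKM.

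PCNA, the sliding clamp, was the most abundant of all members, at 181.5 FPKM in control hearts and 186.5 in AAPH hearts (log2 ratio 0.04). It ranked 416 among the tested genes in control hearts and 379 in AAPH hearts. The subunits of the clamp loader diverged. RFC1, its large subunit, was at 9.61 and 12.8 FPKM (0.38) and RFC3 at 4.22 and 5.05 (0.21), while RFC4 was at 28.3 and 24.2 (−0.21) and RFC5 at 87.7 and 71.3 (−0.29). RFC5 stayed below 0 under both rescalings (−0.04 and −0.06). RFC4 did not, but less the median of all genes it lay at −0.19 as TPM. With its highest transcript alone, RFC4 was at 0.04 as deposited. The single-strand binding subunits RPA1 (24.4 and 23.6), RPA2 (46.8 and 41.0) and RPA3 (23.8 and 24.1) had ratios of −0.05, −0.19 and 0.02.

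The ribonucleotide reductase genes, which supply deoxynucleotides, were all slightly higher. RRM1, the large subunit, was at 29.8 and 32.8 FPKM, RRM2, the small subunit of dividing cells, at 42.3 and 48.5, and RRM2B, the small subunit induced by p53, at 12.1 and 13.2. Their ratios were 0.14, 0.19 and 0.12. The type II topoisomerases, which untangle copied DNA, had similar values: TOP2A, the form of dividing cells, was at 36.6 and 38.0 FPKM, and TOP2B at 35.1 and 34.8.

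Checkpoint genes lay farther apart than those of any replication role, with a standard deviation of log2 ratios of 0.58 in 5 genes. CHEK2, the kinase that ATM activates at breaks, was at 6.30 FPKM in control hearts and 3.505 in AAPH hearts (log2 ratio −0.70). ATR, the kinase that senses single-stranded DNA, was at 7.27 and 4.79 FPKM (−0.52). ATM, the kinase that senses double-strand breaks, was at 3.27 and 3.81 (0.17). RAD1, a subunit of the checkpoint clamp, was on the other side, at 6.55 and 11.4 FPKM (0.71), as was RAD17, which loads that clamp, at 3.28 and 4.14 (0.26). Both of these genes are on Z, and the 3 kinases are not. After rescaling to TPM CHEK2 was at −0.47 and ATR at −0.29. Against the median of all genes they lay at −0.70 and −0.52 on that scale.

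Homologous recombination, which copies the sister strand across a break, held 14 members with a median of 0.13. By the log2 ratio as deposited 0 of them were past 1.5-fold, against 2.73% higher and 3.93% lower of all tested genes. With a pseudocount of 0.1, MCM9 (0.81) and RAD54L (0.59) were past it and RAD51B (−0.51) was not. At that setting 5.0% of all tested genes were higher and 5.45% lower. RAD51B (9.996 and 6.98 FPKM, −0.46), RAD51D (13.9 and 12.5, −0.15), RAD51AP1 (11.0 and 9.75, −0.16) and RAD52 (12.7 and 11.1, −0.18) had ratios below 0. Of these, RAD51B was the 1 below 0 under both rescalings. Less the median of all genes, RAD51D (−0.14), RAD51AP1 (−0.16) and RAD52 (−0.17) also stayed below it as TPM. Toward the AAPH library lay RAD54L, a motor protein that moves along DNA, at 3.78 and 5.73 FPKM (0.49), and RAD54B, its relative, at 2.46 and 3.56 (0.40). MCM9, part of a helicase with MCM8, was at 1.499 and 2.70 (0.57).

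BRCA1 was at 4.999 and 6.65 FPKM and BRCA2 at 1.35 and 1.82 (log2 ratios 0.35 and 0.27). Of the remaining genes of this role, XRCC3 (0.30), MCM8 (0.19) and RAD50 (0.07) lay above 0, and XRCC2 (−0.11) below it as deposited and above it under both rescalings. Less the median of all genes, XRCC2 lay at −0.15 as TPM. With the highest transcript alone, as deposited, XRCC2 lay above 0 (0.48) and MCM8 below it (−0.10). At a mean FPKM of 1 to 5, repair members not on Z had a median of 0.16 in 18 genes, and all tested genes with another chromosome a median of 0.06. At 5 to 20 FPKM these medians were 0.00 (17 genes) and 0.03, and at 20 or more they were −0.06 (4 genes) and −0.08. Replication members, in the same order of level, had medians of 0.21 (5 genes), −0.05 (9 genes) and −0.03 (21 genes). Low level and a higher ratio thus went together, and the part of level in the ratios of these genes was not tested.

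In end joining, which seals broken ends directly, the 3 members went different ways. XRCC4, the partner of DNA ligase IV, had the largest ratio of all members, at 7.22 FPKM in control hearts and 13.6 in AAPH hearts (log2 ratio 0.83). XRCC6 (Ku70), which binds ends together with XRCC5, was at 12.4 and 8.92 (−0.43, and −0.19 after rescaling to TPM), and XRCC5 (Ku80) was at 9.46 and 9.97 (0.07). Against the median of all genes, XRCC6 lay at −0.42 as TPM. XRCC4 is on Z, and the Ku genes are not.

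Nucleotide excision, which removes bulky lesions, had a median of 0.23 in 6 genes. RAD23B, which stabilises the damage sensor XPC, was the most abundant, at 44.4 and 57.4 FPKM (0.36). ERCC8, which acts at stalled transcription, was at 1.31 and 1.97 (0.36). Both are Z-linked. ERCC4, a nuclease subunit, was at 1.49 and 2.24 FPKM (0.38), ERCC3, a helicase of TFIIH, at 11.9 and 12.9 (0.10), ERCC6 at 2.099 and 2.05 (−0.02) and ERCC5, the second nuclease, at 11.1 and 9.68 (−0.19). The last 2 were above 0 under both rescalings. Less the median of all genes, ERCC6 lay at −0.08 and ERCC5 at −0.18 as TPM. With the highest transcript alone, as deposited, ERCC6 lay at 0.27 and ERCC5 at 0.33.

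Of the break, mismatch and postreplication genes, PARP3 and MSH3 alone were past 1.2-fold. PARP1, the main sensor of strand breaks, was at 47.2 and 50.99 FPKM (0.11), while PARP3, a related sensor, was at 5.95 and 3.96 (−0.49). The mismatch genes MSH6 (15.2 and 15.3 FPKM, 0.00) and MLH3 (5.61 and 6.16, 0.11) differed little. MSH3, which acts on larger loops and is on Z, was at 3.02 and 4.43 (0.43). MSH4, known for its role in meiosis, was at 3.87 and 3.23 (−0.20). RAD18, the ubiquitin ligase that marks PCNA at stalled forks, was at 22.4 and 18.9 FPKM (−0.24, and 0.01 after rescaling to TPM). Less the median of all genes it lay at −0.22 as TPM.

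The Fanconi genes, which act on crosslinks between strands, had a median of 0.16 in 10 genes. At 1.5-fold 1 was higher and 0 lower, against 2.73% and 3.93% of all tested genes. With a pseudocount of 0.1, FANCG (0.78) and FANCD2 (0.64) were past it and FANCE (−0.32) was not. At that setting 5.0% of all tested genes were higher and 5.45% lower. At 1.2-fold as deposited, 3 of the 10 were higher and 1, FANCE, lower, against 16.6% and 18.0%. Of those 3, FANCG and FANCC are on Z, where 230 of 408 tested genes were 1.2-fold or more higher. FANCG, a core complex subunit on Z, was at 3.27 FPKM in control hearts and 5.68 in AAPH hearts (log2 ratio 0.64). FANCC, also of the core complex and on Z, was at 4.41 and 6.48 (0.47). FANCD2, which is ubiquitinated at crosslinks, was at 3.30 and 5.19 (0.53), and its partner FANCI at 4.76 and 4.84 (0.02). FANCL, the ubiquitin ligase subunit, was the most abundant, at 29.6 and 27.6 (−0.10). FANCA (0.16), FANCB (0.19) and FANCF (0.17) lay above 0 and FANCM at −0.01, and FANCE lay at −0.26 and below 0 under both rescalings.

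The 3 members with the largest ratios toward the AAPH library were on chromosome Z, and the next 3 (MCM9, FANCD2 and RAD54L) were not. All 95 members could be placed on a chromosome through the RefSeq gene table (GRCg7b), and 10 of the 94 tested are on Z: the repair genes XRCC4, RAD1, FANCG, FANCC, MSH3, RAD23B, ERCC8 and RAD17, and PARP8 and ERCC6L2 of the names in neither class. All 10 were higher in the AAPH library as deposited, with ratios of 0.26 to 0.83 and a median of 0.41, and under both rescalings they lay 0.21 (ERCC6L2, TPM) to 0.84 (XRCC4) above the median of all genes. Their FPKM summed to 77.7 in control hearts and 111 in AAPH hearts. Of the 10 members past 1.5-fold as TPM, 6 were Z-linked and 4 (FANCD2, MCM9, RAD54L and RFC1) were not; under the other rescaling RAD54B was also past it, making 5 of 11 off Z. The 84 members on other chromosomes had a median of 0.02. As deposited, 0 of them were past 1.5-fold toward the AAPH library and 2 toward the control library. Of all 8483 tested genes placed on other chromosomes, 155 and 266 were.

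Z-linked genes were higher in the AAPH library as a class. Over all 408 tested Z genes the median log2 ratio was 0.30, against 0.00 for the 8483 tested genes placed on other chromosomes. Of the Z genes 84.3% had a ratio above 0, and 15.2% were 1.5-fold or more higher. In birds males carry a pair of Z chromosomes and females a single Z, and Z genes are only partly compensated. The labels do not give the sex of the embryos, and with 1 library per group the treatment and any difference in embryo sex cannot be told apart. Of the 10 members on Z, 8 lay above the median of Z genes; RAD17 and ERCC6L2 (both 0.26) lay below it. XRCC4 lay 0.53 above it, RAD1 0.41 and FANCG 0.34. The median control level was 3.28 FPKM in the Z-linked members and 6.53 in all tested Z genes. The part of level in these positions was not tested.

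**Figure D3:**
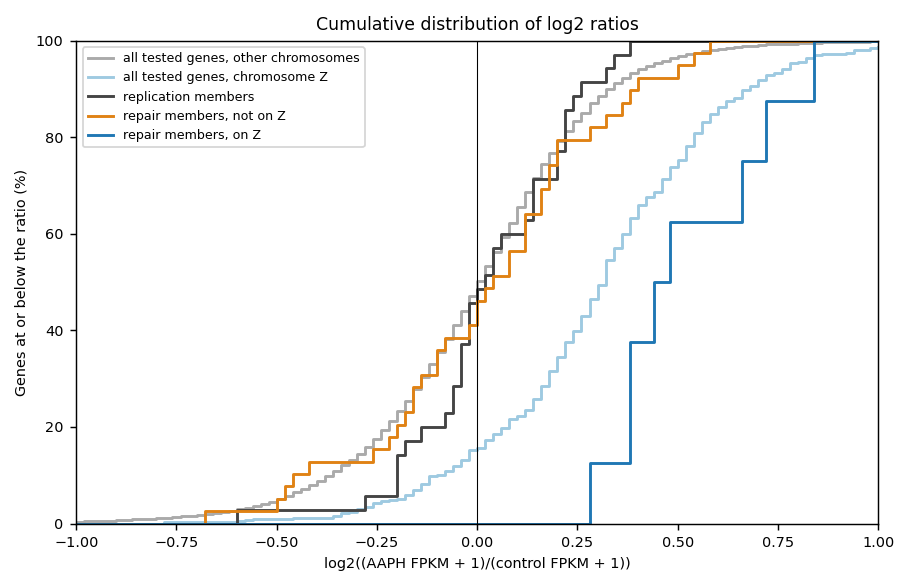
Cumulative share of genes (%) against the log2 ratio, AAPH over control, for all tested genes on other chromosomes, all tested Z genes, replication members, and repair members off and on Z. As deposited, the curves of the replication members and of the repair members not on Z cross 50% near 0.02, and that of the 8 Z-linked repair members crosses it near 0.45, to the right of all Z genes (0.30); under both rescalings these 4 medians move right, with that of all genes.

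The genes beside the Z-linked members were mostly higher too. The 5 tested genes on each side of each member, in the order of the RefSeq table, had medians from 0.05 (beside FANCG) to 0.39 (beside RAD1), and each of the 10 members lay above the median of its neighbours. All 10 neighbours of RAD1 and all 10 of RAD23B had ratios above 0. XRCC4 lay 0.47 above its neighbours' median and FANCG 0.59 above; in FANCG's surroundings PIGO, the next gene, was at −0.03 and VCP, on the other side, at 0.26. XRCC4, MSH3 and RAD17 lie near each other, as do FANCC and ERCC6L2, so these members share neighbours and are not separate observations. The part of level in the distances from neighbours was not tested.

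**Figure D4:**
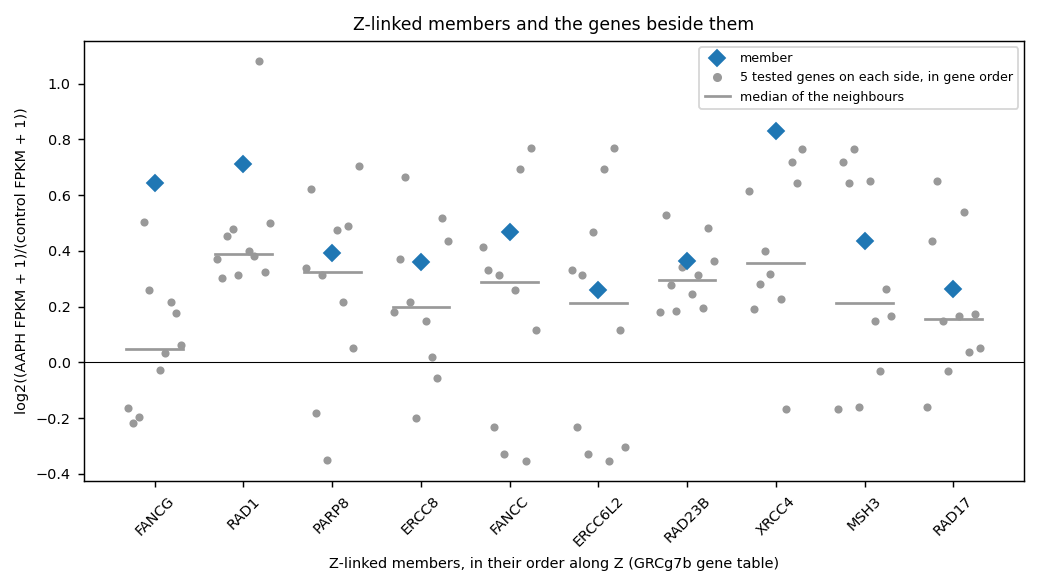
Log2 ratio, AAPH over control, of the 10 Z-linked members (diamonds, in their order along Z) and of the 5 tested genes on each side (grey points, with their median as a bar). Each diamond lies above its bar, least so for ERCC6L2 (0.05 above) and most for FANCG (0.59 above).

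In several members, replication as well as repair genes, the shares of the assembled transcripts differed between the libraries. Replication genes with large shifts included ORC2 (52.1 percentage points) and ORC3 (41.7). The 95 members have 191 transcripts, and 55 members have more than 1. In 27 of these 55 the share of some transcript differed by 20 percentage points or more between the libraries, which is 49.1% of them, against 36.4% of the 6743 tested genes with several transcripts and a value in both libraries. Of these 27, 19 were repair members, from 32 repair members with more than 1 transcript. The rest were replication genes or names in neither class. The part of level and transcript number in these counts and shares was not tested. FANCD2 moved most: its first transcript was at 3.29 FPKM in control hearts and 0.618 in AAPH hearts, and its second at 0.00153 and 4.57. Both are assigned to the same reference transcript.

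XRCC5, whose sum was nearly equal (9.46 and 9.97 FPKM), had its first transcript at 6.30 and 2.21 FPKM and its second at 2.26 and 7.76. In RAD1 the second transcript went from 1.98 to 10.6 FPKM while the first went from 2.67 to 0.163. In XRCC4 the first transcript was at 5.79 and 9.13 FPKM (log2 ratio 0.58). In FANCG the first was at 3.27 and 4.09 (0.25), while the other two were near 0 in the control library and at 0.771 and 0.812 in the AAPH library. With the highest transcript alone, XRCC4 and FANCG thus came within 1.5-fold, FANCC had a ratio of −0.24, and RAD1 (1.96) and CHEK2 (−0.66) stayed past it. How fragments were divided between overlapping transcripts has no error here, and its part in these shifts was not tested.

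**Figure D5:**
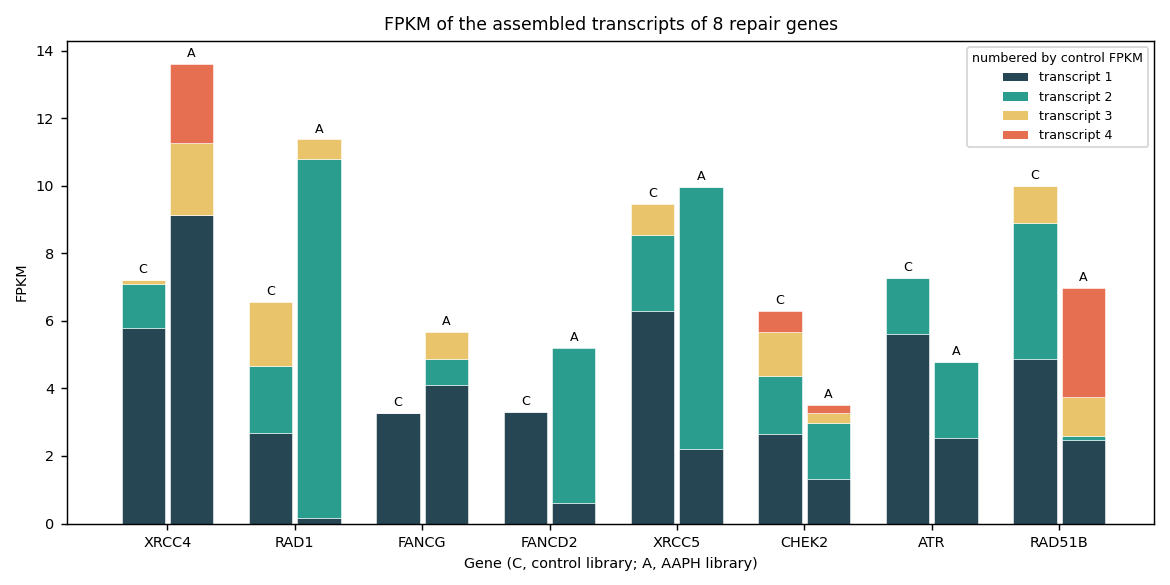
FPKM of each assembled transcript, stacked, for 8 repair genes in the control (C) and AAPH (A) libraries; transcripts are numbered within a gene by their control FPKM. Total heights of XRCC5 are alike (9.46 and 9.97 FPKM) while its first and second transcripts trade places, and RAD1 in the AAPH library is nearly all second transcript (93.5%).

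The 12 tested names in neither class had a median of 0.14 and 0 past 1.5-fold, against 2.73% higher and 3.93% lower of all tested genes. RAD21, a cohesin subunit, was at 36.5 and 39.7 FPKM (0.12), and XRCC6BP1 at 26.4 and 20.5 (−0.35). PARP6 was at 7.44 and 4.67 (−0.57) and PARP8 at 1.45 and 2.22 (0.39). With a pseudocount of 0.1, PARP6 lay at −0.66, past 1.5-fold, and PARP8 at 0.58, just within it. At that setting 5.0% of all tested genes were higher and 5.45% lower. Ratios of PARP9 (−0.05), PARP11 (0.16), PARP12 (−0.19) and PARP16 (−0.12) were smaller with transcripts summed. With the highest transcript alone, PARP11 lay at −0.70 and PARP16 at −0.49. MCM3AP (0.17), RAD54L2 (0.19), ERCC6L (0.21) and ERCC6L2 (0.26) lay above 0.

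Other genes of the same pathways, from a list written out by known role, gave a like picture. Of 22 further replication genes with a tested value, 1 was 1.5-fold or more higher and 0 lower as deposited, against 2.73% and 3.93% of all tested genes. Their median was 0.03. The gene farthest toward the control library was DBF4, the activator of the CDC7 kinase, at 8.58 and 7.28 FPKM (−0.21). CDT1 (37.5 and 35.0, −0.10), FEN1 (40.8 and 38.3, −0.09) and TYMS (34.4 and 32.5, −0.08) lay slightly below 0 as deposited. TK1 (48.5 and 53.9, 0.15) lay slightly above it. Farther above were DNA2 (5.28 and 7.24, 0.39), WDHD1 (3.96 and 5.21, 0.32) and TOP1 (35.1 and 43.2, 0.29). Of the 22 genes, 11 lay above 0 and 11 below it. At 1.2-fold 6 were higher and 0 lower, against 16.6% and 18.0% of all tested genes.

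Of 47 further repair genes tested, 0 were past 1.5-fold in either direction by the log2 ratio as deposited. Of all tested genes, 2.73% were higher and 3.93% lower. The 47 genes had a median of 0.04. The pseudocount of 1 in the ratio understates low genes. By FPKM alone, low genes such as DCLRE1B and LIG4 were more than 1.5-fold higher. NEIL1, the farthest lower, stayed within 1.5-fold by FPKM too. DCLRE1B, a nuclease, was farthest toward the AAPH library (0.727 and 1.53 FPKM, 0.55), and NEIL1, a glycosylase that removes oxidised bases, farthest toward the control library (5.11 and 3.61, −0.41). Among base excision genes, the route known for oxidised bases, OGG1 was at 8.06 and 6.59 FPKM (−0.26) and UNG at 28.9 and 25.8 (−0.16). POLB was at 31.5 and 32.01 FPKM (0.02), MUTYH at 4.22 and 4.32 (0.03) and NEIL3 at 1.00 and 1.65 (0.40). Also on the repair list, LIG3 (−0.25) and MBD4 (−0.18) lay below 0. These ratios are as deposited, where the median of all genes was 0.00. LIG4, the ligase that XRCC4 binds, was at 1.51 and 2.59 FPKM (0.52) and is on chromosome 1. Other listed end-joining genes were PRKDC, at 1.69 and 2.25 FPKM (0.27), NHEJ1, at 2.63 and 2.33 (−0.12), and DCLRE1C, at 2.73 and 2.63 (−0.04). The repair genes XPA (35.2 and 36.6, 0.06) and APTX (18.4 and 20.5, 0.15), both on Z, lay below the median of Z genes.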

How the data were processed

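RNA-seq values were deposited by the authors as FPKM, 1 value for each of 27335 assembled transcripts per library, per the file headers. Per the submitters' processing notes, the tools were Cuffdiff, Cufflinks 2.2.1, TopHat2 2.1.1 and bcl2fastq. The build and the annotation used are not given in these sources. Groups came from the labels' chemical entry.

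FPKM was summed per gene name; 1968 transcripts without a name were left out. Ratios used a pseudocount of 1 and names with a mean FPKM of 1 or more. Summed FPKM was 1248089 (control) and 1042407 (AAPH). Relative depth was read from 781 low genes, of which 88.0% had ratios of whole fragment numbers within a relative tolerance of 0.0002. Chromosome and gene order came from a RefSeq table (GRCg7b), in which 88.0% of tested names had a chromosome. Genes on Z were ordered by their start position in that table. Near-identical paralogues can share reads.

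Members, roles and lists were chosen with earlier results of these data known. Members named with values were those past 1.5-fold, the extremes and most abundant of each role, a set of core genes and those nearest the line; others are named to account for the members. Some members and 1 further pathway gene enter the counts and medians but are not reported here by name. Marker lists covered cardiomyocytes, dividing cells and the erythroid, neural, fibroblast and epicardial, endothelial and leukocyte types. No test was possible. Alternatives were another pseudocount, filters, rescalings, single transcripts, and leaving out Z or shared members. The ratio and the 1.5-fold call were run on simulated data with larger known changes in abundant genes alone. That run checks the calculation and does not cover genes of low level. Computations used matplotlib 3.10.9, scipy 1.17.1, pandas 2.3.3 and numpy 2.4.6 in Python 3.11.15.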

Additional observations from a re-analysis of the deposited data

How the results depend on the processing

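No paired analysis was possible because each group has 1 library. As deposited 3 members were 1.5-fold or more higher and 2 lower, of 94, against 2.73% and 3.93% of all genes. These counts were 6 and 4 with a pseudocount of 0.1 (all genes 5.0% and 5.45%), and 2 and 1 of 63 with a minimum mean of 5 FPKM (1.83% and 3.35%). They were 10 and 0 as TPM (8.4% and 1.6%), and 11 and 0 with mitochondrial-genome and haemoglobin genes left out of the scaling (8.53% and 1.83%). They were 8 and 9 with the highest transcript alone (7.83% and 8.81%), and 0 and 2 of 84 without Z members (2.7% and 3.93%). At 1.2-fold, which was added after the data were seen, they were 20 and 10 (16.6% and 18.0%). The shares over all genes moved in the same direction as the members' counts in each of these settings except without Z members, where the shares hardly moved. The replication and repair medians were 0.27 and 0.30 as TPM, and 0.25 and 0.32 on the other scale, as the median of all genes moved by 0.23 and 0.21. The difference of the medians was −0.20 with the highest transcript alone. It was below 0 under each setting taken alone, from −0.20 to −0.0007, the last without Z members. Without Z members its direction turned on the scale. The replication and repair medians were then 0.27 and 0.24 as TPM, and 0.25 and 0.23 on the other scale. Without filter, centred by the median of ratios, without genes that act in both replication and repair, or with ERCC6L2 counted as repair (added after the data were seen), the counts were unchanged and each median moved by under 0.1. Without the genes of both roles, the 23 replication members left had a median of 0.05 and the difference was −0.055. The cause of the changes with the pseudocount and with single transcripts was not tested. Absolute depth is unknown, so counting error limits low genes by an amount that cannot be given.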
